A study of Mus musculus with 2 samples.

Results

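The tumour endothelial cells (ECs) described here are the 5% of the cells profiled one by one in this study that had the highest levels of 7 genes, most of them known to rise when oxygen is low. The score of a cell was the mean of its deposited values, ln(1 + unique molecular identifiers (UMIs) per 10000), over Ankrd1, Bnip3, Slc2a1, Ak4, Ankrd37, Mgarp and Slc16a3, and the top 5% of the cells of both libraries pooled were taken. They are called high-score ECs below. The study injected Lewis lung carcinoma (LLC) tumours, grown under the skin of adult male C57BL/6J mice, with PBS or with 14 μg of cGAMP in 70 μl PBS, and took the tumours 24 h later by its methods, although a legend of the study gives a shorter time. cGAMP is a cyclic dinucleotide that activates STING, the protein through which DNA in the cytosol, sensed by the enzyme cGAS, induces interferons. LLC is a mouse lung carcinoma line. Live cells that carried CD31 and lacked CD45 were sorted, so leucocytes should have been removed by the gate, and 1 droplet library was made from 1 mouse per condition. The PBS library held 148 high-score ECs among 2517 cells (5.88%, exact binomial 95% interval 4.99 to 6.87), and the cGAMP library 45 among 1340 (3.36%, 2.46 to 4.47).

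Cells short of oxygen stabilise the hypoxia-inducible factors, transcription factors that are otherwise marked for destruction by prolyl hydroxylases of the Egln family. These factors raise the uptake of glucose and its breakdown to lactate, the removal of mitochondria, and the secretion of factors that call in new vessels. In a growing vessel the leading tip cells carry a programme of their own, with ligands such as Apln and receptors such as Cxcr4, and are followed by stalk cells that form the tube.

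The 7 genes lie apart in the genome. In GRCm38 (GENCODE M21), Ankrd1 occupies chr19:36111961-36120099, Bnip3 chr7:138890836-138909519, Slc2a1 chr4:119108711-119137983, Ak4 chr4:101419277-101466995, Ankrd37 chr8:45996902-46005707, Mgarp chr3:51388412-51396738 and Slc16a3 chr11:120948480-120960868. Slc2a1, Ak4 and Slc16a3 are on the plus strand and the other 4 on the minus strand. Hypoxia-inducible factors bind the core motif ACGTG or GCGTG. RefSeq promoter windows on GRCm38, from 250 bases before to 50 after the start of transcription, were searched for both motifs on both strands. ACGTG was found for 6 of the 7 genes and for 31.3% of the 2398 matched genes among those compared below. Of all 27025 genes with a window, 21.8% held ACGTG. The glycolysis genes described below held it in 12 of 21 (57.1%) and the interferon-stimulated genes in 4 of 37 (10.8%). Genes with several windows have more chances of a match, and among genes with 1 window 5 of 13 glycolysis genes (38.5%) and 28.8% of those compared held it. The Ankrd1 window held neither motif. The following stretches of 6 promoters are shown because they carry a motif found for most of the score genes, 5′ to 3′ on the strand of the gene, with every ACGTG and GCGTG of either strand in capitals (CACGT and CACGC are the same motifs read on the opposite strand). The ACGTG of Bnip3 is read in both directions, as CACGTG. The windows are on chr7:138909582-138909640 for Bnip3, chr4:119108657-119108715 for Slc2a1, chr8:46000060-46000100 for Ankrd37, chr3:51396735-51396793 for Mgarp, chr11:120949013-120949066 for Slc16a3 and chr12:54204072-54204124 for Egln3, a prolyl hydroxylase gene that was not part of the score.
Bnip3: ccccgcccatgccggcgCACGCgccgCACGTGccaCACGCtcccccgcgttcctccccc
Slc2a1: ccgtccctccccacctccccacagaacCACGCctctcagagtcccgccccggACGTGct
Ankrd37: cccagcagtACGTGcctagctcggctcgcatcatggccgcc
Mgarp: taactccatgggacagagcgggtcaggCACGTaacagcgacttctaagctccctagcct
Slc16a3: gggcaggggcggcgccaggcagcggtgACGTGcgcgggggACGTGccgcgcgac
Egln3: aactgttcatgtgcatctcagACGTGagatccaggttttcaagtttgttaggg
A match in these windows describes the sequence only, and binding was not measured.

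The PBS library held 92081146 UMIs and the cGAMP library 63366746, with medians of 29780 and 41177.5 UMIs per cell. High-score ECs were not shallow. Their median was 34840 UMIs in the PBS library, against 29454 in the other ECs, and 36087 against 41197 in the cGAMP library. The median share of mitochondrial UMIs was 3.71% against 4.52% and 1.95% against 2.89%. Cell types without Pecam1, which encodes CD31, had been removed by the authors, so its detection was largely set beforehand. It had a UMI in 148 of 148 and 44 of 45 high-score ECs, and Cdh5, the endothelial cadherin, in the same numbers. The 2 libraries had 1 cell barcode in common. In the cGAMP library, 1 high-score EC with 1185 UMIs had no UMI of Pecam1 or Cdh5, and another held 680 of the 685 UMIs of the neutrophil markers S100a8, S100a9, Retnlg and Csf3r found in that group. Results that rest on the latter cell are given with and without it. Each condition is 1 mouse, so no spread between animals was available and nothing was tested. Values are UMIs summed over the cells of a group, in CPM (scaled so that the UMIs of each group have the same total), and their 95% intervals (exact Poisson for levels, exact conditional binomial for ratios) cover counting error only.

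The score ran on without a gap. Its median was 0.13 over all cells and its highest value 1.90, with 0.642 in the last cell inside the group and 0.636 in the first outside. Within 10% of that limit lay 33 high-score ECs and 46 other ECs, so that the group is the end of a range. A high-score EC had UMIs of 5 of the 7 genes in the median, in both libraries, and at least 4 of them in 147 of 148 and 42 of 45 cells. Of the other ECs, 17.8% after PBS and 15.1% after cGAMP had at least 4. Leaving any 1 gene out of the score kept between 172 (without Ankrd37) and 190 (without Mgarp) of the group, and 188 were kept without Ankrd1.

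**Figure D1:**
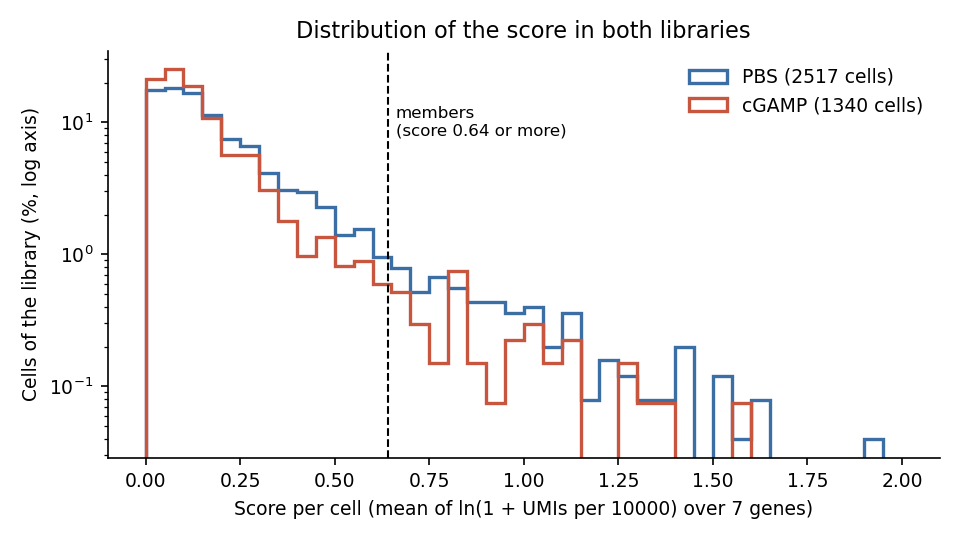
Distribution of the score per cell, the mean of ln(1 + UMIs per 10000) over the 7 genes, in the PBS library (blue, 2517 cells) and the cGAMP library (red, 1340 cells), as percent of the library on a log axis. The dashed line marks the lowest score of the high-score ECs (members), 0.642, and neither curve has a gap there.

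The values of the 7 genes chose the cells and are given as a description. Slc2a1, the glucose transporter of the plasma membrane, was at 414 CPM in high-score ECs and 58.3 CPM in other ECs of the PBS library, and at 379.6 and 53.8 CPM in the cGAMP library. The lactate exporter Slc16a3 was at 297 and 44.3 CPM, then at 299 and 32.6 CPM. Bnip3, a receptor for the removal of mitochondria, was at 206 and 12.8 CPM, then at 212 and 11.02 CPM. Every high-score EC of both libraries held Slc2a1 UMIs, and 144 of 148 and 40 of 45 held Bnip3 UMIs. Ankrd37, a small ankyrin repeat protein, was at 506 and 84.3 CPM in the PBS library and 389.8 and 47.3 CPM in the cGAMP library. Ak4, a mitochondrial adenylate kinase, was at 42.9 and 2.86 CPM, then 31.3 and 1.58 CPM. Mgarp, a mitochondrial protein, was at 35.0 and 0.71 CPM, then 48.0 and 0.52 CPM.

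Ankrd1, an ankyrin repeat cofactor of transcription, was detected in a part of the group. It had a UMI in 55 of 148 (37.2%) and 18 of 45 (40.0%) high-score ECs, against 2.07% and 2.24% of other ECs. In cells thinned to 5000 UMIs these shares were 14.97% and 29.5% against 0.43% and 0.39%, so that a cell without a UMI need not lack the transcript. Its level was 75.5 CPM against 2.31 after PBS and 183 against 1.69 after cGAMP, where 2 cells held 62.5% of the UMIs. Slc2a1, Ankrd37, Slc16a3 and Bnip3 each had UMIs in at least 88.9% of the high-score ECs of both libraries, values that the choice of cells used.

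Outside the score, 102 of 2989 genes (3.41%) with at least 50 CPM in high-score or other ECs of each library were at least 2-fold higher in high-score ECs in both libraries, and 67 (2.24%) at least 2-fold lower. In the PBS library alone these were 116 (3.88%) and 84 (2.81%), and in the cGAMP library 142 (4.75%) and 110 (3.68%). The cells were chosen by their own expression, so this is a description with no test. Across these genes the log2 ratios in the 2 libraries had a Pearson r of 0.88. Genes are not independent replicates.

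Egln3, the prolyl hydroxylase that is itself raised by hypoxia, led the higher genes by the smaller of its ratios. It was at 201 CPM (95% interval 189 to 213) in high-score ECs and 13.8 CPM (13.0 to 14.6) in other ECs of the PBS library, 14.6-fold apart, and at 63.1 CPM (52.2 to 75.6) and 3.804 CPM (3.33 to 4.32) in the cGAMP library, 16.6-fold apart. Of 31 hypoxia targets with at least 10 CPM in the PBS library, 30 were higher in high-score ECs and 19 were at least 2-fold higher, where 3.19% of all 8067 genes were. In the cGAMP library these numbers were 29 and 16 of 30, where 4.5% of 7969 genes were at least 2-fold higher. Their median log2 ratio was 1.54 and 1.16, against -0.12 and -0.07 over all genes, of which 36.7% and 43.0% were higher in high-score ECs. Vegfa, the main growth factor of vessels, was at 39.6 CPM against 2.13 and at 23.7 against 2.23, with 45.5% of the latter UMIs in 2 cells. Ero1l, which forms disulphide bonds in the endoplasmic reticulum, was at 349 against 42.8 and 255 against 41.0 CPM. Hilpda, a protein of lipid droplets, was at 293 against 56.3 and 297 against 101 CPM, and Mxi1, an antagonist of Myc, at 119.6 against 21.7 and 66.3 against 9.80 CPM. Ddit4, an inhibitor of mTOR signalling, was the exception in both libraries, at 49.6 against 70.5 and 62.0 against 79.4 CPM.

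The collagen-modifying enzymes of the same list were also higher. P4ha2, a prolyl hydroxylase of collagen, was at 125 against 27.6 CPM and 107 against 21.4 CPM, and Plod2, a lysyl hydroxylase, at 87.8 against 16.2 and 69.0 against 13.2 CPM. Among the genes of the hypoxia system itself, Hif1a differed little, at 303 against 273 and 375 against 280.4 CPM. Epas1, which encodes the other hypoxia-inducible alpha subunit of ECs, was lower, at 116 against 256 and 101 against 193.4 CPM. Cited2, a hypoxia-induced competitor for the coactivator of these factors, was higher, at 145 against 37.1 and 231 against 42.3 CPM.

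**Figure D2:**
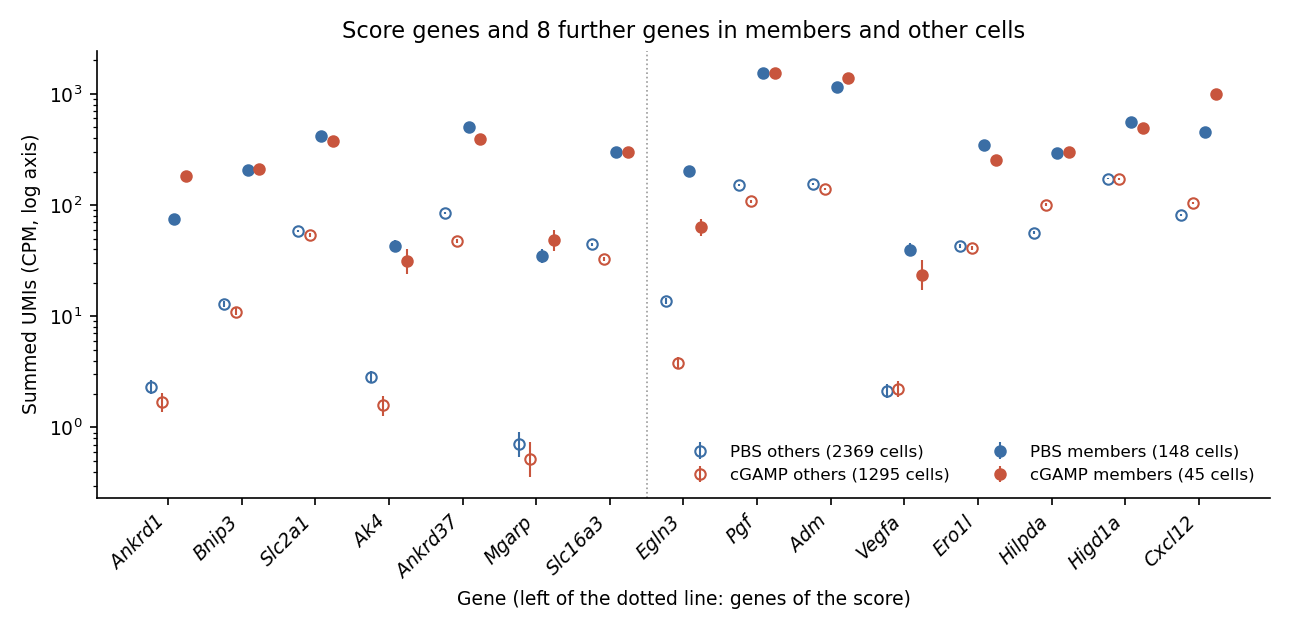
Summed UMIs in CPM (log axis) of the 7 genes of the score and of 8 further genes, in high-score ECs (members, filled) and other ECs (open) of the PBS (blue) and cGAMP (red) libraries, with exact Poisson 95% intervals. In each of the 15 genes both filled points lie above both open points, for example Egln3 at 201 and 63.1 CPM against 13.8 and 3.804 CPM.

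Genes of glycolysis were higher throughout. All 17 with at least 10 CPM after PBS and all 15 after cGAMP were higher in high-score ECs, 12 and 12 of them at least 2-fold (3.19% and 4.5% of all genes), with median log2 ratios of 1.28 (rank interval over the genes 0.99 to 1.84) and 1.37 (1.003 to 1.602). The triosephosphate isomerase gene Tpi1 was at 1014 against 283 CPM and at 1072 against 199 CPM. Pgk1, phosphoglycerate kinase, was at 1153 against 394 and 1131 against 399.8 CPM, and Ldha, the enzyme that makes lactate, at 1308 against 662 and 1284 against 687 CPM. Pfkfb3, which makes the activator of phosphofructokinase, was at 66.1 against 16.3 and 57.1 against 22.8 CPM. The genes of the respiratory chain were not higher. Of 32 nuclear genes of the chain 26 and 30 were lower, with medians of -0.16 and -0.26 on the log2 scale, and of the 13 genes of the mitochondrial genome 10 and 13 were lower, with medians of -0.26 and -0.52. Over all genes the medians were -0.12 and -0.07, and 36.7% and 43.0% were higher. The PBS median of the nuclear genes lies near the -0.12 of all genes.

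Tip cell genes were higher in most cases. Of 24 such genes, 21 were higher in high-score ECs of the PBS library, 11 at least 2-fold, and 19 of the cGAMP library, 8 at least 2-fold, with median log2 ratios of 0.89 and 0.49. Of all genes 3.19% and 4.5% were at least 2-fold higher. Pgf, placental growth factor, a ligand of the receptor Flt1, was at 1543 CPM (1511 to 1576) against 152 (149 to 154) in the PBS library and 1543 CPM (1487 to 1601) against 108 (105 to 110) in the cGAMP library. In cells thinned to 5000 UMIs each, Pgf was found in 93.9% of high-score ECs and 21.9% of other ECs after PBS, and in 95.5% and 13.5% after cGAMP. Without thinning these shares were 98.6% and 38.6%, then 97.8% and 26.6%. The thinned comparison left out 1 high-score EC and 69 other ECs of the PBS library and 1 and 12 of the cGAMP library. Adm, which encodes the vasodilating peptide adrenomedullin, was at 1156 against 154 CPM and 1399 against 140.3 CPM. It was on the hypoxia target list as well, so the tip and hypoxia lists are not fully separate. Apln, the ligand apelin, was at 1432 against 399 and 1165 against 315 CPM, while its receptor gene Aplnr, a marker of venous and stalk cells, was at 17.8 against 179 and 21.0 against 193.1 CPM. The apelin ligand and its receptor thus lay on opposite sides of the comparison in both libraries. Esm1, Angpt2 and Cxcr4 were between 2.27 and 3.66 times as high in high-score ECs.

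The receptors of vascular growth factors were not raised with their ligands. Kdr, the main receptor of Vegfa, was at 155 CPM against 319 after PBS and 123 against 294 after cGAMP, and Flt1 at 594 against 687 and 618 against 828 CPM. Dll4, the Notch ligand of tip cells, was at 198 against 159 and 165 against 152 CPM, and the Notch target Hey1 at 10.6 against 37.0 and 8.63 against 34.8 CPM. Of 18 genes of these pathways, ligands included, 8 were higher and 10 lower after PBS, and 6 higher and 12 lower after cGAMP. These counts are near those of all genes, of which 36.7% and 43.0% were higher. Gal and Chga, peptide genes of other tip-like ECs, did not behave alike in the libraries. Gal was at 716 against 101 CPM after PBS, with 50.04% of the UMIs in 2 cells, and at 51.2 against 82.6 CPM after cGAMP.

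Several secreted and matrix genes were among the other higher genes. Cxcl12, the chemokine that binds Cxcr4, was at 453 CPM (436 to 471) against 81.8 and 993 CPM (948 to 1039.5) against 104, although it was on the arterial list, where 9 of 10 and 6 of 8 genes were lower. Fn1, fibronectin, was at 885 against 171 and 335 against 52.3 CPM, and Tnc, tenascin C, at 160.1 against 34.6 and 123 against 27.7 CPM. Pdgfa, a ligand for receptors of mural and mesenchymal cells, was at 70.4 against 12.4 and 242 against 41.4 CPM. Ctgf, a matricellular protein and target of the YAP and TAZ cofactors, was at 546 against 114 and 914 against 176 CPM. The YAP and TAZ list as a whole had 8 of 13 and 10 of 14 genes higher, with medians of 0.43 in both libraries. The rank intervals of these medians, -0.28 to 1.24 and -0.26 to 1.58, included 0. Genes of the basement membrane were 8 of 14 and 7 of 14 higher, with medians of 0.09 and -0.0028, so matrix genes were not higher as a set. Of all genes 36.7% and 43.0% were higher, with medians of -0.12 and -0.07.

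Venous and stalk genes were lower. Of 11, 10 were lower in each library and 9 at least 2-fold lower, where 5.34% and 6.65% of all genes were, and the medians were -2.83 and -2.65 on the log2 scale. Selp, the adhesion receptor P-selectin, was at 13.7 against 184 CPM and 14.02 against 354 CPM. Slco2a1, a prostaglandin transporter, was at 1.94 against 119.8 and 14.6 against 159 CPM, and Ackr1, the atypical chemokine receptor of venules, at 0.18 CPM (1 UMI) against 42.1 and 8.63 against 176 CPM. Lrg1, a secreted glycoprotein of venous ECs, was at 108 against 769.5 and 167 against 1049 CPM. Vcam1 was the exception, at 72.3 against 43.6 and 137 against 75.4 CPM. Capillary genes had medians of -1.07 and -1.14, with Cd36, a fatty acid transporter, at 25.9 against 174 and 52.3 against 174 CPM. Of 6 genes linked to flow, 5 were lower in each library, among them the water channel Aqp1 at 340.1 against 1580.3 and 154 against 769 CPM. Cav1, of caveolae, was higher instead, at 1456 against 725 and 1019 against 409 CPM. Of all genes 36.7% and 43.0% were higher.

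**Figure D3:**
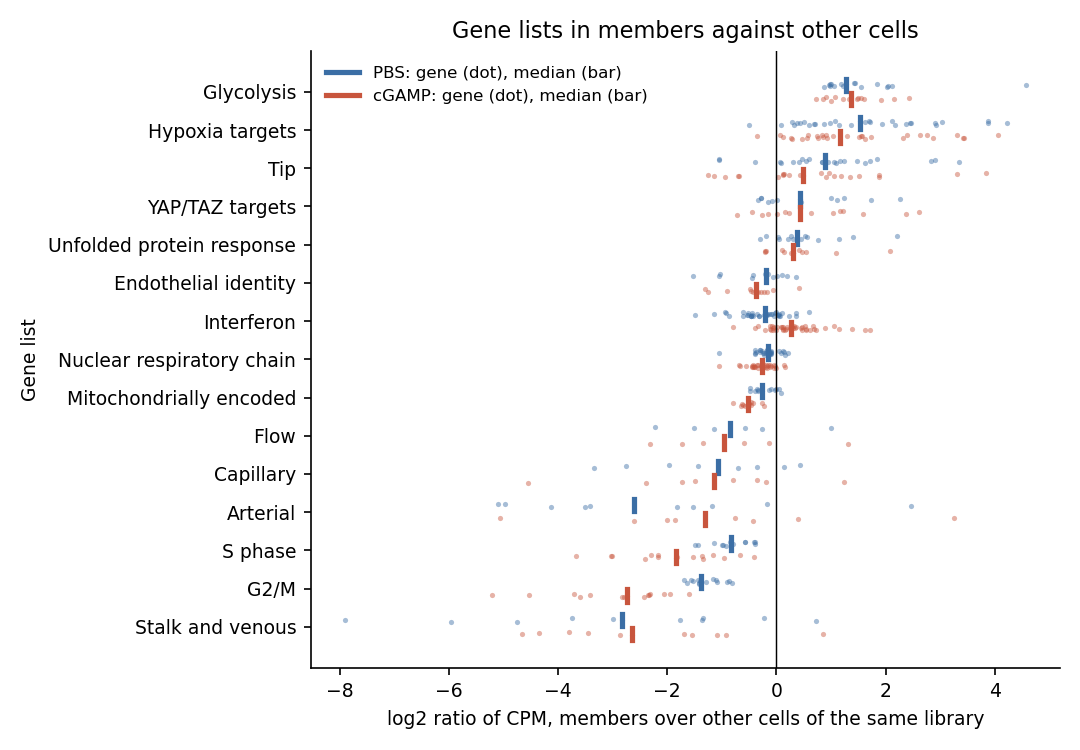
Log2 ratio of CPM, high-score ECs (members) over other ECs of the same library, for the genes of 15 lists (dots; at least 10 CPM in either group) with the median of each list (bar), for PBS (blue) and cGAMP (red). Glycolysis (medians 1.28 and 1.37), hypoxia targets and tip genes lie to the right of 0, and venous genes (-2.83 and -2.65) and cell cycle genes to the left.

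Genes of the cell cycle were lower. All 14 S phase genes of the PBS library and all 16 of the cGAMP library were lower, with medians of -0.84 and -1.83, and all 16 and 15 genes of G2 and mitosis, with medians of -1.39 and -2.73. Top2a, a topoisomerase of dividing cells, was at 66.7 against 149 CPM and 12.9 against 91.9 CPM. In thinned cells it was found in 10.9% and 21.7% of ECs after PBS, and in 4.55% and 15.7% after cGAMP. Without thinning these shares were 26.4% and 39.6%, and 17.8% and 36.1%. The cGAMP value rests on few cells, since Top2a had 24 UMIs in the 45 high-score ECs, found in 8 of them. Of 12 genes of endothelial identity 8 and 11 were lower, with medians of -0.18 (rank interval -1.03 to 0.10) and -0.38. At least 2-fold lower were 3 and 2 of them, where 5.34% and 6.65% of all genes were. Cdh5 was at 1036 against 1153 and 901 against 1011 CPM. The unfolded protein response list had 12 of 14 and 10 of 13 genes higher, with medians of 0.38 and 0.31, and the apoptosis list 8 of 24 and 9 of 25, with medians of -0.05 and -0.15. Immediate early genes had 9 of 13 lower in each library, with medians of -0.50 and -0.31. The counts of the last 2 lists, and the PBS count of lower identity genes, are near those of all genes. Of all genes 36.7% and 43.0% were higher, with medians of -0.12 and -0.07.

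Because the score is a range, the same genes were followed along it in 5 ranges of the pooled cells. In the PBS library Pgf was at 49.4 CPM in the lower 50% of cells, 96.2 CPM from 50 to 75%, 297 CPM from 75 to 90%, 548 CPM from 90 to 95% and 1543 CPM in the top 5%. The cGAMP library gave 22.7, 87.1, 317, 780 and 1543 CPM in the same order. Vegfa stayed between 1.401 and 12.8 CPM in the 4 lower ranges of both libraries and reached 39.6 and 23.7 CPM in the top 5%. Apln rose less steeply at the top, from 1060.4 to 1432 CPM after PBS, and after cGAMP it was at 1192 CPM below the limit and 1165 CPM above it. Selp went from 281 to 13.7 CPM and from 462 to 14.02 CPM between the lowest and the highest range. After cGAMP its level was already 11.6 CPM just below the limit.

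**Figure D4:**
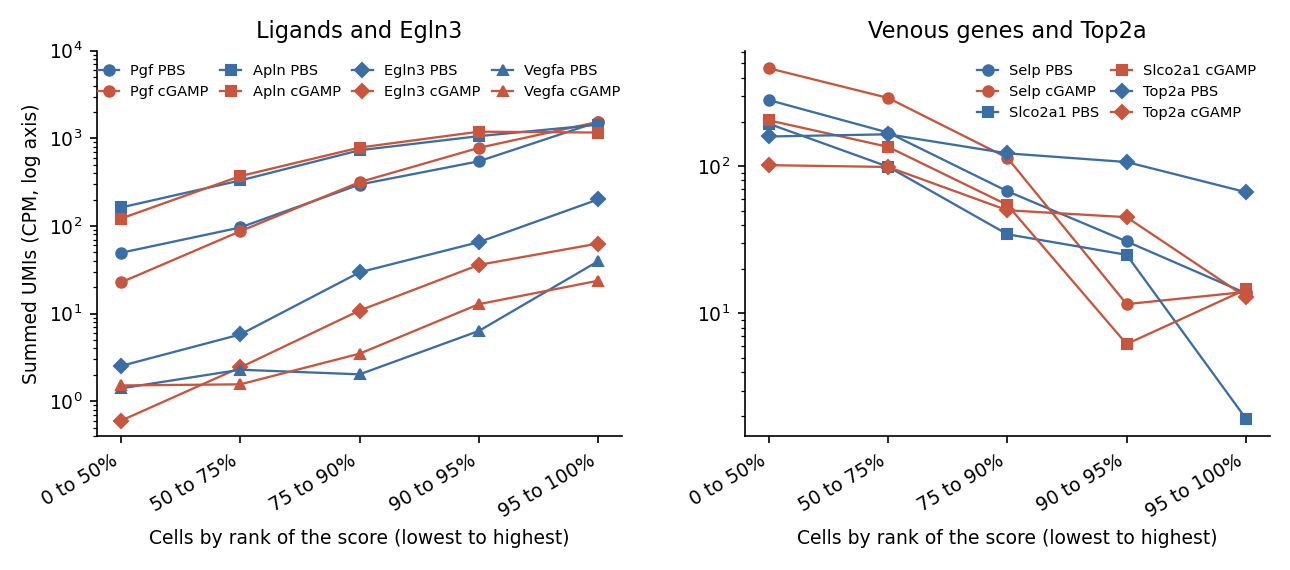
CPM (log axis) of Pgf, Apln, Egln3 and Vegfa (left) and of Selp, Slco2a1 and Top2a (right) in ECs ranked by the score, from the lower 50% to the top 5%, which is the high-score group, for PBS (blue) and cGAMP (red). Egln3 rises from 2.53 to 201 CPM after PBS and from 0.60 to 63.1 CPM after cGAMP, while Selp falls in both.

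High-score ECs with and without Ankrd1 UMIs were set side by side as a description. The cells with Ankrd1 had higher scores, with medians of 1.04 against 0.82 and 0.99 against 0.82. Of the glycolysis and hypoxia target genes 41 of 48 were higher in them after PBS and 31 of 45 after cGAMP, by small amounts, with medians of 0.12 and 0.06 on the log2 scale, where 3755 of 8051 and 4069 of 7908 of all genes were higher. Ctgf was at 791 against 399.6 CPM in the PBS library and 1326 against 540.4 CPM in the cGAMP library, and Cyr61, another YAP target, at 952 against 495 and 968 against 526 CPM. The YAP and TAZ list had 8 of 13 and 10 of 14 genes higher, with medians of 0.42 and 0.30, and Amotl1, Nt5e, Asap1 and Ptpn14 were lower in both libraries. Edn1, the vasoconstrictor endothelin, named after its values were seen, was at 740 against 244 and 726 against 398 CPM. All 16 and 11 genes of G2 and mitosis were higher in the cells with Ankrd1, with medians of 1.31 and 2.14. The cells with Ankrd1 were deeper, with medians of 36675 against 34116 UMIs and 47836 against 32776 UMIs, and the part of depth in these differences was not tested. Tagln, a smooth muscle and stress fibre gene, was at 94.1 against 4.78 CPM and 292 against 45.2 CPM. Single cells weighed in the pericyte and smooth muscle markers, which include Tagln. Among high-score ECs 1 cell held 68 of the 391 UMIs of these markers after PBS, and 1 held 200 of 459 after cGAMP.

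Other tip-like ECs of the same tumours provide the nearest comparison. Groups of equal size were taken by the mean value of Gal and Chga, and by that of Ramp3, Esm1, Igfbp3 and Apln. The first shared 20 of its cells with the high-score ECs (10.4% of each) and the second 50 (25.9% of each), and the shared cells were left out of the comparison. Against the Gal and Chga group, 16 of 31 hypoxia targets after PBS and 17 of 31 after cGAMP were at least 2-fold higher in high-score ECs, where 2.55% and 4.05% of all genes were. Their medians were 1.35 and 1.17. Against the Ramp3 group the medians were 1.06 and 1.12, with 16 of 31 and 17 of 30 at least 2-fold higher, where 2.24% and 3.84% of genes were. The tip list had medians of 0.12 and 0.10 against the Gal and Chga group, and 0.21 and -0.24 against the Ramp3 group. That list holds Gal, Chga, Ramp3, Esm1, Igfbp3 and Apln, which chose these groups. Its medians therefore cannot tell how far the groups differ in tip genes. Against the Ramp3 group after cGAMP, 3 of its 24 genes were at least 2-fold higher and 6 lower, where 300 and 234 of 7806 genes were. The venous and stalk list hardly separated the groups, with medians of -0.21 and 0.49, and of -0.23 and 0.06. Pgf was at 677 and 462 CPM in the Gal and Chga group and 388 and 486 CPM in the Ramp3 group, below the 1543 CPM of both high-score groups, and Vegfa was at 1.99 to 2.87 CPM in all of these. Esm1 ran the other way in the Ramp3 group, which it helped to choose, at 1497 and 1250.0 CPM.

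The question put to the cGAMP library was how these ECs differed after STING activation. Their share was 5.88% after PBS and 3.36% after cGAMP, and 23.3% of the group (17.5 to 29.9) came from the cGAMP library. The intervals of both shares lay apart, but they cover counting of cells only, and a change of composition cannot be told apart from a difference between 2 mice or in the level of the 7 genes. Among high-score ECs, 119 of 3163 genes (3.76%) with at least 50 CPM were at least 2-fold higher after cGAMP and 42 (1.33%) at least 2-fold lower. In the other ECs 73 (2.31%) of the same genes were at least 2-fold higher and 32 (1.01%) lower.

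Interferon-stimulated genes were higher after cGAMP in both groups, and the ratios of most single genes were greater in high-score ECs. The summed level of the list differed little between the groups. It was 7811 CPM after PBS and 23012 CPM after cGAMP in high-score ECs, and 7741 and 21684 CPM in other ECs. In the lower 50% of ECs by score it was 7434 and 22809 CPM. All 45 such genes with at least 10 CPM were higher in high-score ECs, 40 at least 2-fold, and the log2 ratios, cGAMP over PBS, had a median of 2.02 (1.69 to 2.13). In other ECs the same 45 were higher, 32 at least 2-fold, with a median of 1.36 (1.21 to 1.498). Over all genes 3.14% and 1.72% were at least 2-fold higher and the medians were -0.03 and -0.07. Of the 45 ratios, 41 were greater in high-score ECs, 30 with counting intervals apart, and 4 smaller, namely those of Cxcl9, B2m, H2-K1 and H2-D1. Over all genes the ratio was greater in high-score ECs for 53.4%. Per cell, the median of the list on the deposited ln scale was 0.38 in high-score and 0.44 in other ECs after PBS, and 1.06 (SD over cells 0.34) and 0.87 (SD 0.29) after cGAMP. High-score ECs were thus just below the others in the PBS library and above them in the cGAMP library. The difference between the groups was not tested, because each condition is 1 mouse. The median in high-score ECs was 1.57 when the top 10% of cells were taken.

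Rsad2, which encodes the antiviral protein viperin, was at 122 CPM (113 to 131) after PBS and 498 CPM (466 to 531) after cGAMP in high-score ECs, and at 104 and 162 CPM in other ECs. Ifit2, an antiviral protein that binds RNA, was at 24.3 and 80.3 CPM against 24.3 and 30.9 CPM. Isg15, a ubiquitin-like modifier, was at 219.9 and 1099 CPM against 248 and 806 CPM. The ratios of these antiviral genes were greater in high-score ECs, with counting intervals apart. Those intervals leave out the spread between cells and between mice, so the difference was not tested. Ccl5, a chemokine for T cells, was at 14.1 CPM after PBS and 1579 CPM after cGAMP, against 5.97 and 427 CPM in other ECs, although 2 cells held 52.5% of the UMIs after cGAMP. In thinned cells it was found in 47.7% of high-score ECs and 26.7% of other ECs after cGAMP, against 62.2% and 54.6% without thinning. The chemokine Cxcl9 was at 190 and 1578 CPM against 126 and 1138 CPM, with nearly the same ratio in both. The class I heavy chain gene H2-K1 was at 1431 and 3218 CPM against 1119.5 and 3441 CPM.

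**Figure D5:**
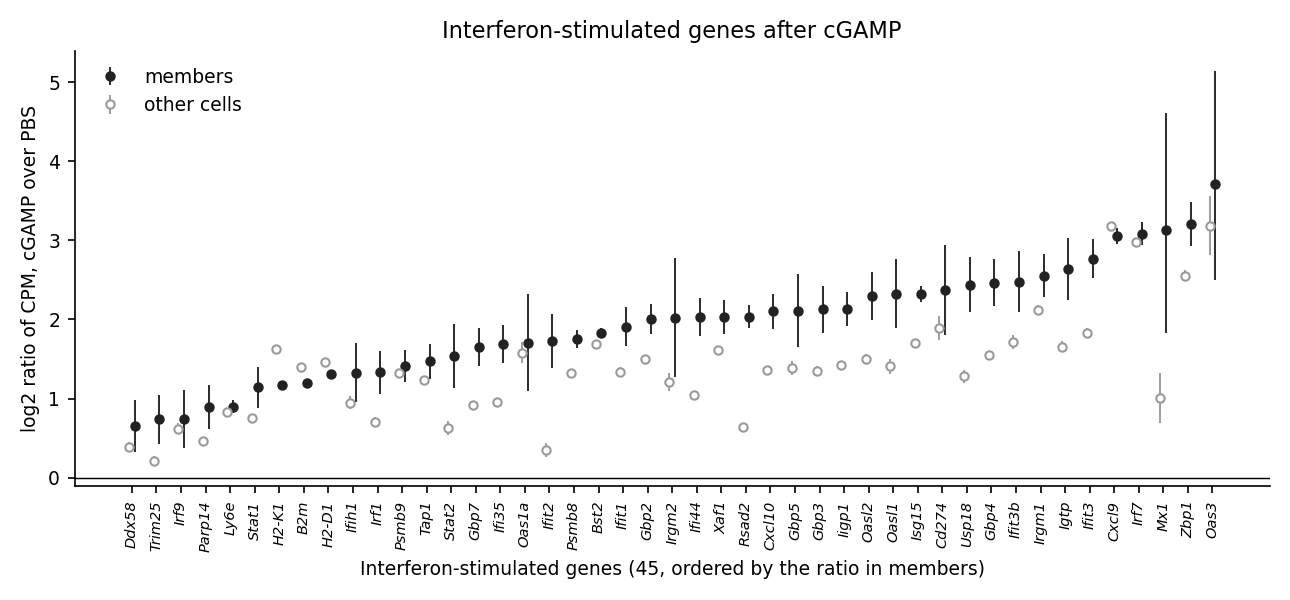
Log2 ratio of CPM, cGAMP over PBS, of 45 interferon-stimulated genes in high-score ECs (members, black) and other ECs (grey, open), with 95% counting intervals, ordered by the ratio in high-score ECs. The black points lie higher for 41 of the 45 genes, and lower for Cxcl9, B2m, H2-K1 and H2-D1.

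The other tip-like groups gave smaller interferon ratios, with medians of 1.11 (0.83 to 1.21) over 44 genes in the Gal and Chga group and 0.56 (0.26 to 0.71) over 42 genes in the Ramp3 group. High-score ECs over the Gal and Chga group had median log2 ratios of -0.58 after PBS and 0.16 after cGAMP for this list. Beside that group, the greater ratio thus went largely with a lower PBS level. Over the Ramp3 group these medians were -0.33 and 0.97. Over all genes the 4 medians lay from -0.06 to -0.04. Along the score the median over the 45 genes was 1.52 in the lower 50% of ECs, 1.01, 1.21 and 1.32 in the next 3 ranges and 2.02 in the top 5%, so that it did not rise steadily. TNF and NF-kB genes had 17 of 21 higher after cGAMP in high-score ECs, 7 at least 2-fold, with a median of 0.85 (0.08 to 1.32), and 17 of 21, 4 at least 2-fold, with a median of 0.46 in other ECs, where 3.14% and 1.72% of all genes were at least 2-fold higher. Il6, a cytokine of the acute phase, was at 7.565 and 38.8 CPM, below the 34.6 and 94.4 CPM of other ECs, and Nfkbia, the inhibitor induced by NF-kB, at 872 and 1573 CPM. Of 24 apoptosis genes 15 were higher after cGAMP and 1 at least 2-fold, with a median of 0.05 (-0.09 to 0.41), against 0.03 in other ECs.

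Some of the genes with the largest ratios after cGAMP rested on the cell with neutrophil markers. It held 431 of 434 UMIs of S100a9, 245 of 247 of S100a8 and 166 of 170 of Il1b, and had 8 UMIs of Pecam1 and 18 of Cdh5. Without it Il1b was at 2.21 CPM after cGAMP and 3.87 CPM after PBS, a log2 ratio of -0.81 in place of 4.57, and Cxcl2 had a log2 ratio of 2.59 in place of 3.74. Cd14 moved from 2.87 to 1.32. Ratios of Ccl5, Zbp1, Irf7 and Cxcl9 were 6.84, 3.15, 3.08 and 3.04 without the cell, close to 6.81, 3.20, 3.09 and 3.06 with it. The top counts per cell also matter for mural markers, since the 9 pericyte and smooth muscle genes summed to 247 CPM in high-score ECs after cGAMP and to 65.3 to 68.8 CPM in the other 3 groups. Tagln made 162 CPM of this, and 1 cell held 200 of the 459 UMIs. Markers of T and NK cells had no UMI in any high-score EC, and those of tumour or epithelial cells had 10 UMIs after PBS and none after cGAMP. Macrophage markers were at 44.7 and 118 CPM in high-score ECs and 54.1 and 114 CPM in other ECs, and those of red cells at 2.99 and 63.1 CPM against 119 and 78.3 CPM. Red cell UMIs were found in 7 of 148 and 12 of 45 high-score ECs, against 83 of 2369 and 42 of 1295 other ECs. In the other ECs 1 cell held 6157 of 10290 such UMIs after PBS, and 1 held 4338 of 4816 after cGAMP. The part of all these markers in the results was not tested.

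The score set 1 limit for both libraries, so the level of hypoxia genes within the group was largely fixed by the choice of cells and is given as a description. In high-score ECs 5 of 17 glycolysis genes were higher after cGAMP (median log2 ratio -0.03) and 8 of 31 hypoxia targets (median -0.22). Of all genes 47.0% were higher in these cells, with a median of -0.03. Over both lists, the 48 genes had a median of -0.20 (-0.35 to -0.03), and of -0.06 in other ECs. With the top 5% of each library taken in place of the pooled top 5%, the median was -0.41. Pgf had a log2 ratio of -0.0002 (-0.06 to 0.06) in high-score ECs, from 1543 to 1543 CPM, and of -0.50 in other ECs. Egln3 was lower, at 201 and 63.1 CPM (log2 ratio -1.67), as it was in other ECs, at 13.8 and 3.804 CPM (-1.85). Hmox1, heme oxygenase, ran the other way, from 174 to 408 CPM, although 2 cells held 40.6% and 40.1% of the UMIs. Cxcl12 was at 453 and 993 CPM (log2 ratio 1.13, 1.05 to 1.22), against 0.35 (0.30 to 0.40) in other ECs.

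Tip genes were lower after cGAMP in 19 of 24, 4 at least 2-fold, with a median of -0.40. In other ECs 18 of 24 were lower, 2 at least 2-fold, with a median of -0.28. Over all genes 3.01% were at least 2-fold lower in high-score ECs and 1.44% in other ECs, and 47.0% and 41.3% were higher. Gal was at 716 and 51.2 CPM and Unc5b, a guidance receptor, at 96.1 and 38.3 CPM. The PBS level of Gal rested largely on few cells, as given above. Fn1 was at 885 and 335 CPM, and all 14 basement membrane genes, in which Fn1 is counted, were lower, with a median of -0.57, against 12 of 14 and -0.53 in other ECs. All 15 genes of G2 and mitosis were at least 2-fold lower, with a median of -1.99, against 5 of 15 and -0.86 in other ECs. The Ramp3 group showed the same, with 15 of 15 at least 2-fold lower and a median of -2.16, while 5 of 14 were higher in the Gal and Chga group, with a median of -0.15. The 13 mitochondrial genes were all lower too, with a median of -0.94, against -0.71 in other ECs, and the median mitochondrial share of these cells was 1.95% against 3.71%. Fewer cells in a state and less RNA of it per cell cannot be told apart in sums of this kind.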

How the data were processed

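The data were droplet single-cell RNA sequencing of sorted LLC tumour ECs, 1 library from 1 mouse per condition. Per the labels and methods, the authors used Cell Ranger 3.0.0 with mm10 and Seurat 3.1.1, removed cells with few genes or a high mitochondrial share and genes found in few cells, then took out clusters without Pecam1, and deposited natural log values, ln(1 + UMIs per 10000). The labels name the v2 kit and the methods v3. Exponentiated values divided by their smallest step in a cell were whole for 100% of the values above 0 (tolerance 0.01) and were used as UMIs.

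High-score ECs, gene lists and the rule for named genes were chosen with earlier results of these data known. The rule named the 7 score genes, all list genes, and the 15 highest and 15 lowest log2 ratios at 50 CPM or more. Lists used 10 CPM or more. UMIs were summed per group (Python 3.11.15, numpy 2.4.6, scipy 1.17.1, pandas 2.3.3). A sum of 0 was set to 3 counts in ratios. Cells were thinned to 5000 UMIs with seed 1. The scripts were tested on simulated data. No doublet caller was run and none is given in the sources used here. An alternative left out the 5% of cells with most UMIs. Promoter motifs were not compared for the 102 higher or 67 lower genes, because fewer than 80% had a window (79 and 51), nor for hypoxia targets (26 of 38).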

Additional observations from a re-analysis of the deposited data

How the results depend on the processing

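Up to 15 alternatives were run, 2 of them added after seeing the data (leaving out the cell with neutrophil markers and the cells under 5000 UMIs). Of 160 values from 11 results, 144 stayed within the range set for them, 16 moved and 0 changed direction. A change of direction could be recorded for medians only, not for counts of genes or the share from the cGAMP library. Leaving out the cell with neutrophil markers, from the cGAMP library, could not move the medians of the PBS library. Genes at least 2-fold higher in both libraries numbered 63 in the top 10% of cells in place of 102. Those lower in both numbered 110.0 in the top 2.5%, 168 at a minimum of 20 CPM and 35 at 100 CPM, in place of 67. Genes higher after cGAMP numbered 180 and 74 at these minimums, in place of 119. Those lower after cGAMP numbered 99 in the top 2.5%, 21 in the top 10%, and 121 and 23 at the minimums, in place of 42. The interferon median after cGAMP was 2.20 in the top 2.5%, 1.57 in the top 10% and 1.68 with the top 5% of each library, and the hypoxia and glycolysis median after cGAMP was -0.41 with the top 5% of each library and -0.36 from means of per-cell values. High-score over other ECs of the cGAMP library gave 1.61 for that list in the top 2.5%, in place of 1.33. The tip median of that library stayed within its range but ran from 0.29 (-0.20 to 1.15) in the top 2.5% to 0.76 with the top 5% of each library, in place of 0.49. For all of these the cause was not tested. The share of the group from the cGAMP library ran from 18.8% to 28.1%. No paired analysis was possible because each condition has 1 library. The 45 cGAMP cells and their 1854802 UMIs limit the counting precision of the cGAMP values, and 1 library per condition leaves the spread between mice unknown.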
